A study of Mus musculus with 7 samples.

Results

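The 8 genes described here encode voltage-gated sodium channels. They are the pore-forming alpha subunit genes Scn1a, Scn2a, Scn3a, Scn8a and Scn9a and the beta subunit genes Scn2b, Scn3b and Scn4b. They are 8 of the 21887 protein-coding genes of the RefSeq table of GRCm38.p6 on the autosomes, X and Y. They were chosen by family name, and a Fos peak was assigned to a gene when it overlapped the gene span extended by 10 kb on both sides. Within these windows lay 28 of the 26862 kainic acid regions of the genome. A kainic acid region is a stretch of overlapping peaks that holds a peak of at least 2 of the 3 kainic acid lists.

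Fos ChIP-seq (chromatin immunoprecipitation with an anti-Fos antibody, then sequencing) was run on the hippocampus of wild-type C57BL/6J mice 2 months old. In the kainic acid group, mice received 2 intraperitoneal injections of 10 mg/kg, 30 min apart, and those with level 4 seizures were killed 1 hour after the first injection. The control group received saline (PBS). Each group had 3 libraries, and the labels do not state how many animals entered a library. A single input library from saline chromatin has no peak list here. Because nothing says that the libraries of a group came from separate animals, p-values measure only the spread between these libraries, which may be technical. The tissue was whole hippocampus, so a peak cannot be given to a cell type, and mice without strong seizures are not represented in the kainic acid group.

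Voltage-gated sodium channels open on depolarisation and carry the inward current of the action potential. The alpha subunit forms the pore and the voltage sensor, and beta subunits are single-span membrane proteins that modify gating and the placing of channels on the surface. Scn8a and Scn2a encode the main alpha subunits of the axon initial segment of excitatory neurons, Scn1a is known above all for its role in fast-firing inhibitory neurons, Scn3a is expressed mostly before birth, and Scn9a is best known from sensory neurons of the periphery. Fos pairs with Jun proteins to form AP-1, which binds enhancers after strong neuronal activity.

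The lists differed greatly in length. With kainic acid there were 15009, 63197 and 29650 peaks in replicates 1, 2 and 3, and with saline 7, 3277 and 2. Kainic acid replicate 2 is thus the longest list and saline replicates 1 and 3 can show almost nothing. The deposited −log10 q of the kainic acid lists starts at 1.35 to 1.38, so a gene without a peak is a gene at which none was called. A kainic acid region lay within 10 kb of 8 of 9 hippocampal neuron marker genes, 2 of 7 glial and vascular marker genes (Aqp4 and Mbp) and 0 of 5 marker genes of other organs, against 40.0% of all protein-coding genes. These genes differ in length (spans of 4 to 759 kb, 1.42 to 111 kb and 1.07 to 26.1 kb), and Mbp, an oligodendrocyte gene, had 11 regions. Peak lists hold no RNA, so the counts do not check the tissue.

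Sequences in front of the start sites are given for 4 alpha subunit genes, because their distance to the nearest Fos peak differed widely from gene to gene. They are the 250 bases before the annotated start, from RefSeq (GRCm38.p6), written 5′ to 3′ on the strand of the gene. The Scn8a sequence lies inside the gene span, which begins at 100869863, and the Scn9a sequence lies partly inside its span, which ends at 66635114. Of the 8 genes, 6 matched the promoter table: Scn1a, Scn2a, Scn8a, Scn9a, Scn2b and Scn4b. Capitals mark bases that lie under a Fos peak.
Scn8a (chr15:100870395-100870644, plus strand): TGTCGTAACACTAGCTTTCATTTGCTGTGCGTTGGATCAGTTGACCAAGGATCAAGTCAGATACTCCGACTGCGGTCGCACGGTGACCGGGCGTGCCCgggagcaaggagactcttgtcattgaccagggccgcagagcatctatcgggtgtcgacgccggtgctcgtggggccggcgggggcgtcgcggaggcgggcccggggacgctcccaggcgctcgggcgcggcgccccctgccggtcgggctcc
Scn2a (chr2:65620519-65620768, plus strand): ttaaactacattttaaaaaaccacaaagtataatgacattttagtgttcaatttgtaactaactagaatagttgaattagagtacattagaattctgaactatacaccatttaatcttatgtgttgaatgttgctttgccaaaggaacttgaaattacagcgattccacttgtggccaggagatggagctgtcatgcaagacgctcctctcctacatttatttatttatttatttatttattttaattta
Scn9a (chr2:66634963-66635212, minus strand): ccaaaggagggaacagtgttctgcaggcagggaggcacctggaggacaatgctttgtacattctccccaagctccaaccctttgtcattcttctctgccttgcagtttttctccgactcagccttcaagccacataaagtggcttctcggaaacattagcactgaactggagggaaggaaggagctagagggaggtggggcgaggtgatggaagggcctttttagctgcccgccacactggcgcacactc
Scn1a (chr2:66440838-66441087, minus strand): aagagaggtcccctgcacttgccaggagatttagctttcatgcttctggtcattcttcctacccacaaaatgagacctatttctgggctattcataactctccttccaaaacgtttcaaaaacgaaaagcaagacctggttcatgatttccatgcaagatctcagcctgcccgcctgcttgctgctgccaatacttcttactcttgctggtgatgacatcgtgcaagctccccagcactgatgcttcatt
The 98 capital bases of Scn8a lie under a peak of kainic acid replicate 2 alone, with a fold of 2.496 over local background. Its percentile rank was 99.0, on a scale from 0 for the peak of the list with the highest fold to 100 for the lowest. The Scn8a sequence is rich in G and C (68.0%, with 30 CG dinucleotides), against a median of 52.4% and 6 CG dinucleotides over 32851 promoters of the table. The Scn2a sequence is poor in them (29.6%, with 2), and 1.30% of promoters had a lower share. Scn9a and Scn1a had 54.4% and 46.8%. Scn8a and Scn2a each have a further annotated start, at 100936271 and 65668686, not printed here. The sequence before each of these had 53.2%, with 9 CG dinucleotides, so the contrast of the 2 genes holds for the printed starts only. Neither TGANTCA, the AP-1 motif, nor TGACGTCA, the cyclic AMP response element, was found on either strand in any promoter of the 6 genes (8 start sites). The search covered 250 bases before to 50 bases after the start, and over all promoters of the same length the motifs were present in 7.81% and 1.79%.

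The first comparison asks how many Fos peaks lay near these genes in each group. Saline replicates 1, 2 and 3 had 0, 2 and 0 peaks within 10 kb of any of the 8 genes, and kainic acid replicates 1, 2 and 3 had 17, 58 and 30. Every kainic acid library was above every saline library. The whole lists separate in the same way, so this order is not particular to the 8 genes. As a share of its list, the number was 0.113%, 0.0918% and 0.101% in kainic acid replicates 1, 2 and 3. In saline replicate 2 it was 0.0610%. The mean was 35 ± 21.0 peaks (SD, n = 3) for kainic acid, against 0.667 ± 1.15 (SD, n = 3) for saline. On the scale of log10(number + 1) the means were 1.51 ± 0.258 and 0.159 ± 0.275, a difference of 1.35 that exceeded the SD of either group. An exact permutation test over the 20 assignments (two-sided, n = 3 and 3) returned p = 0.1, the smallest value this design allows. Within each list the reads behind these peaks were few. The pileup, the number of reads over the summit solved from the deposited fold and p-value, had a median of 20, 18 and 22.5 reads in kainic acid replicates 1, 2 and 3, with a range of 11 to 69. The 2 saline peaks had 17 and 19 reads.

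**Figure D1:**
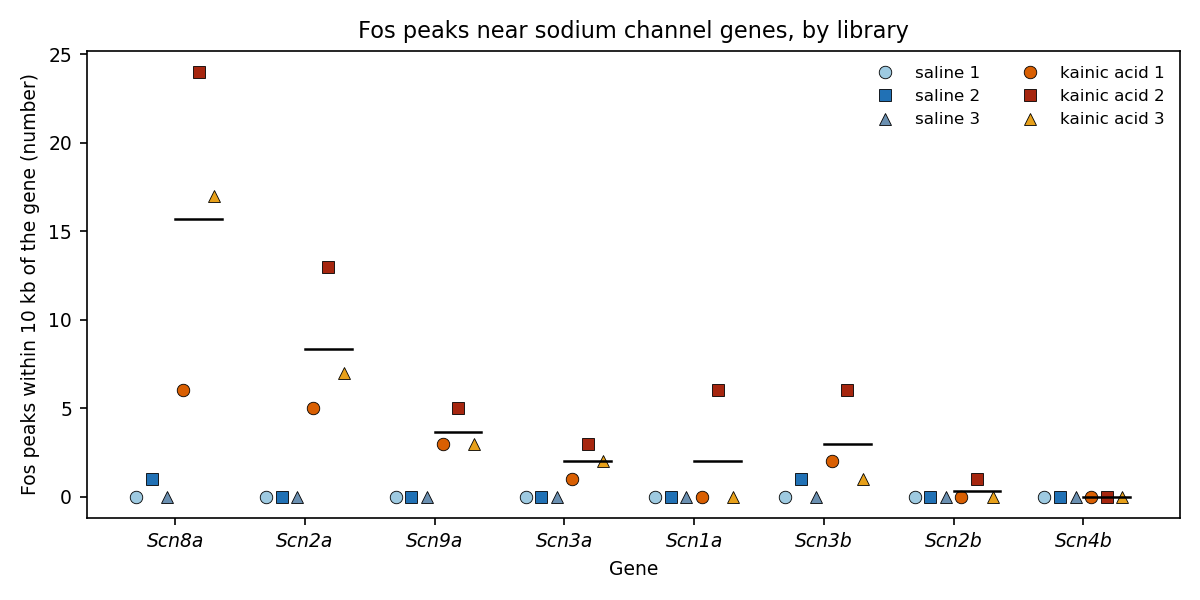
Number of Fos peaks within 10 kb of each sodium channel gene (y axis) in the 3 saline and 3 kainic acid libraries (points), with the kainic acid mean as a line. Scn8a has 6, 24 and 17 peaks in the kainic acid libraries and Scn4b has 0 in all 6 libraries.

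Gene by gene, the family was uneven. Of the 8 genes, 5 (Scn8a, Scn2a, Scn9a, Scn3a and Scn3b) had a kainic acid region, against 40.0% of all protein-coding genes. Without kainic acid replicate 2 it was 3 of 8, against 23.9%. A region in all 3 kainic acid lists lay near Scn8a, Scn2a and Scn9a, 3 of 8, against 23.9% of all genes. By list, 5, 7 and 5 of the 8 genes had a peak of kainic acid replicates 1, 2 and 3, against 26.4%, 60.3% and 40.9% of all genes. For saline replicates 1, 2 and 3 it was 0, 2 and 0 of 8, against 0.0137%, 17.0% and 0%. Counts grow with gene length, so genes of like length are the closer background. The 5 alpha subunit genes span 110 to 176 kb, and 4 of the 5 had a region, against 76.8% of the 1439 genes of 100 to 200 kb. A region in all 3 lists lay near 3 of the 5, against 56.1%. The 3 beta subunit genes span 12.2 to 22.4 kb, and 1 of the 3 had a region, against 35.4% of the 5326 genes of 10 to 25 kb. None of the 3 had a region in all 3 lists, against 18.3%. The shares with a region are near those backgrounds. Over the 8 genes the median was 2.5 regions, against 0 over all genes and 2 over genes of 100 to 200 kb. With so few genes and no further test, the family is described and not set apart from other genes.

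Separation of the groups was counted for each gene in the same way. Every kainic acid list had more peaks than every saline list at 4 of the 8 genes (Scn8a, Scn2a, Scn9a and Scn3a), against 20.7% of all genes. All 4 are alpha subunit genes, so among those it was 4 of 5, against 52.5% of genes of 100 to 200 kb. Among the beta subunit genes it was 0 of 3, against 14.7% of genes of 10 to 25 kb. The reverse order was seen at 0 of 8, and at 0% of all genes. For these 4 genes the exact permutation test gave p = 0.1 each, and 0.484 after Benjamini-Hochberg adjustment over the 21887 genes, and no gene can go below these values with 3 libraries a group.

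Scn8a, the gene of the sodium channel that dominates the distal axon initial segment and the nodes of Ranvier, carried the most peaks of the 8. It lies at chromosome 15, 100869863 to 101045938 (gene ID 20273). Saline replicates 1, 2 and 3 had 0, 1 and 0 peaks in its window and kainic acid replicates 1, 2 and 3 had 6, 24 and 17. All kainic acid libraries were above all saline libraries. The density was 3.06, 12.2 and 8.67 peaks per 100 kb in the kainic acid libraries. Scn8a had 14 kainic acid regions, 7.14 per 100 kb, and 96.0% of all protein-coding genes had a lower density. Of the genes of 100 to 200 kb, 1.74% had as many regions or more. The number rested on the longer lists. All 14 regions had a peak of kainic acid replicate 2, 9 lacked replicate 1, and 4 were in all 3 lists. Without kainic acid replicate 2 or 3 the count fell to 4 and 5.

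The Scn8a regions ran over 122 kb, from 100868803 to 100990972, with a median gap of 7.44 kb. The first start site listed for its promoters lies at 100870645, and the gene span begins before it, at 100869863. Of the 14, 13 overlapped the gene and 1 lay just outside it, before the start. Of the 13, 9 lay between the start of the gene span and its midpoint. The best ranked region was at chromosome 15, 100909246 to 100910880, where the noncoding gene Gm52176 overlaps Scn8a. Its fold was 6.33, 11.7 and 7.58 in kainic acid replicates 1, 2 and 3, with pileups of 41, 69 and 61 reads, and it had no saline peak. These folds are the authors' own values and are ranked only within a list. They put it at percentile ranks of 12.9, 3.17 and 5.81, a mean of 7.30 ± 5.03 (SD, n = 3 lists). Of the 26862 kainic acid regions, 5.39% had a better mean rank.

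A near-equal rank belonged to chromosome 15, 100931609 to 100932289, with a mean of 8.57 ± 9.20 (SD, n = 3). Its fold was 5.76, 11.6 and 8.74, and its summits in the 3 lists lay within 60 bp. The region at 100888074 to 100888958 followed with folds of 6.32, 8.79 and 5.08 and a mean rank of 15.3 ± 8.44. The last of the 4 regions in all 3 lists, at 100934038 to 100934908, lay 1363 bp before a further annotated start of Scn8a at 100936271. Its folds were 5.11, 6.48 and 6.55, and the summits lay within 82 bp. The region nearest to the first start, at 100868803 to 100869423, ended 1222 bp before it and was weak. It had folds of 3.69 and 3.29 in replicates 2 and 3, no peak in replicate 1, and a mean rank of 77.4 ± 4.10 (SD, n = 2). The saline peak of the window, at 101046904 to 101047252 in saline replicate 2 (fold 4.70, 17 reads), lay beyond the other end of the gene and overlapped no kainic acid peak.

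**Figure D2:**
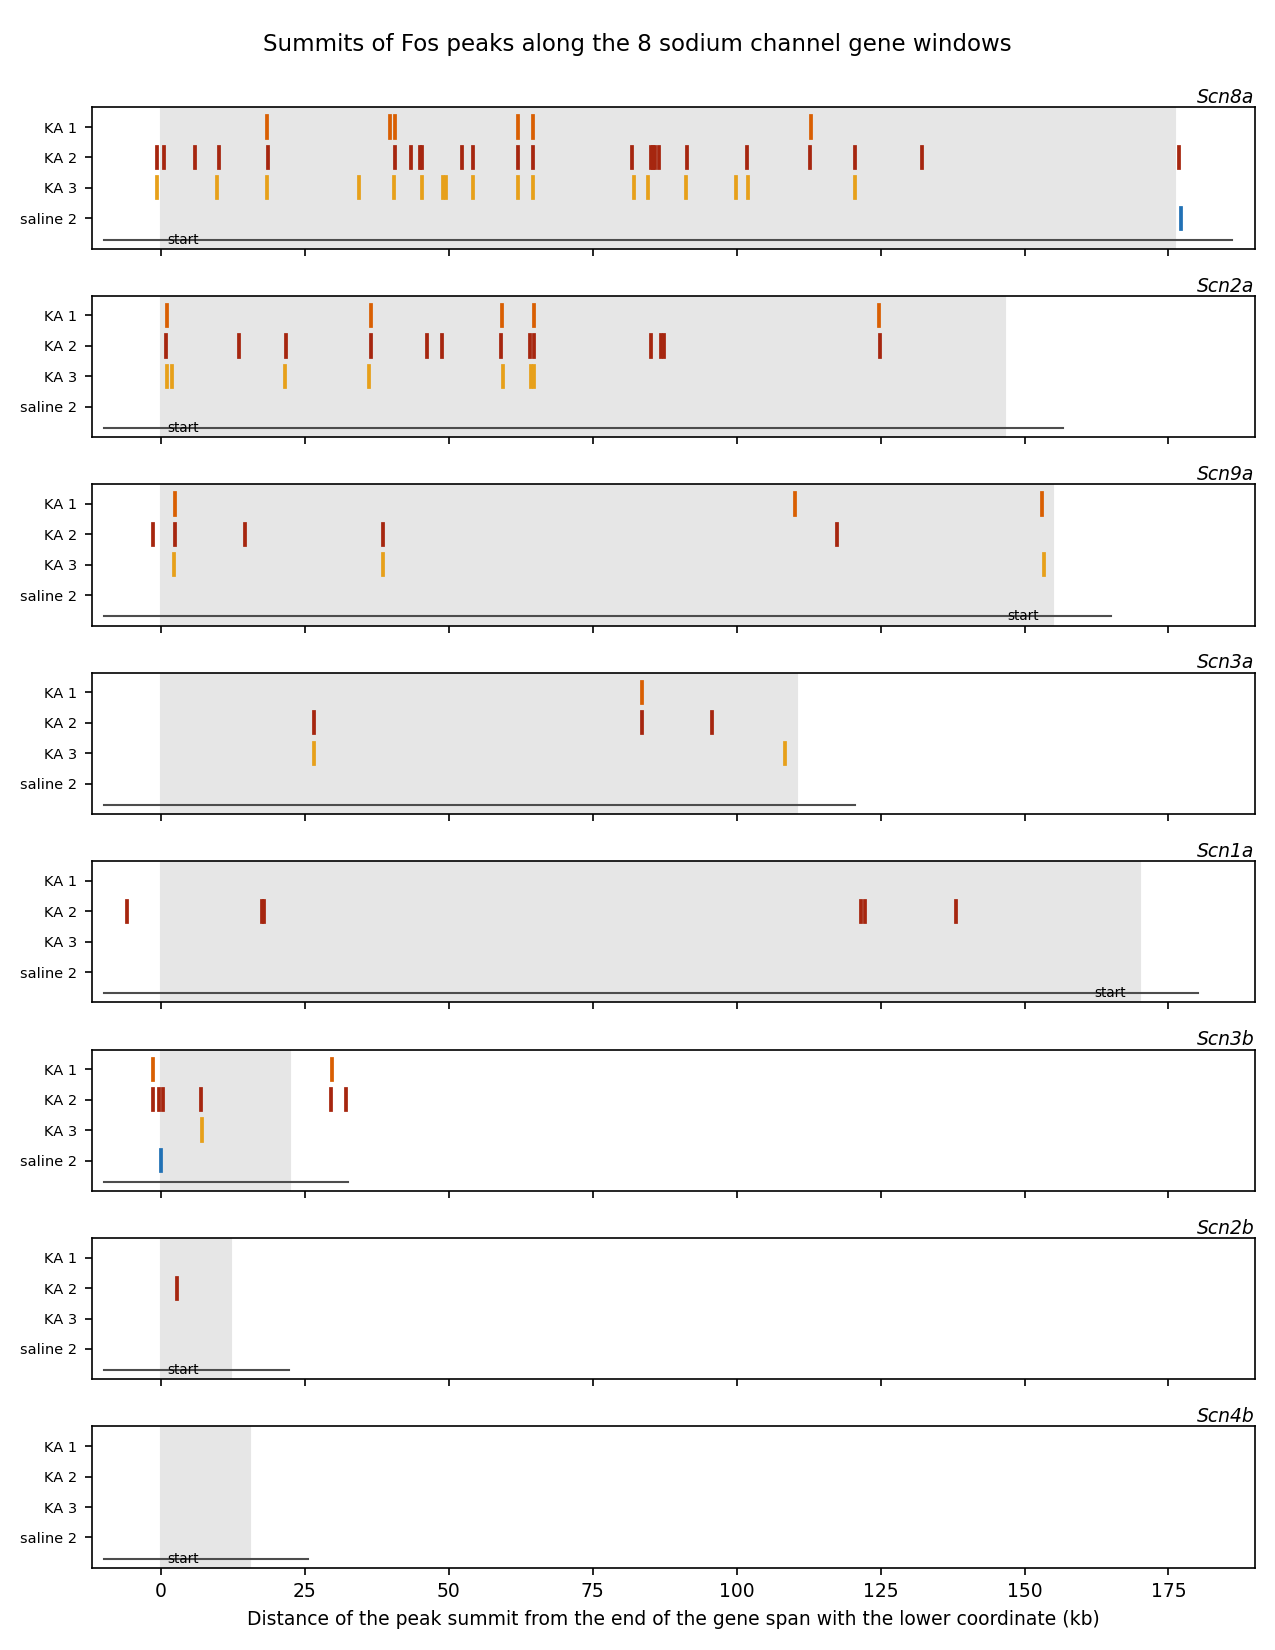
Summits of Fos peaks (ticks) in each kainic acid (KA) library and in saline replicate 2, along the windows of the 8 genes. The x axis is the distance in kb from the end of the gene span with the lower coordinate, grey marks the span, the thin line the window of 10 kb on each side, and "start" the end where transcription begins, where the table gives a strand. Saline replicates 1 and 3 had 0 peaks in these windows.

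Scn2a, whose channel serves the proximal axon initial segment and unmyelinated axons, came next among the alpha subunit genes (chromosome 2, 65620764 to 65767447, gene ID 110876). It had 5, 13 and 7 peaks in kainic acid replicates 1, 2 and 3 and 0 in each saline library. Its 6 regions, 3.60 per 100 kb, all lay inside the gene, and 4 were in all 3 lists. Of the genes of 100 to 200 kb, 16.3% had as many regions or more. The region nearest its start, at 65620885 to 65622223, began 116 bp after the annotated start at 65620769, so it lies just downstream of the Scn2a sequence printed above. Its folds were 3.93, 7.44 and 4.48 in replicates 1, 2 and 3, with 27, 32 and 29 reads, and a mean rank of 38.8 ± 27.1 (SD, n = 3). The best ranked Scn2a region was at 65656758 to 65657571, between its annotated starts, with folds of 5.76, 6.02 and 4.52 and a mean rank of 25.8 ± 8.24. The other 2 regions in all 3 lists, at 65679671 and 65685323, had mean ranks of 57.0 and 44.6. A 2-list region lay 0.152 kb before the latter, so the pair may count a single broad site as 2.

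Scn1a is the contrast to Scn8a. It is nearly as long (170 kb, chromosome 2, 66270781 to 66440837, gene ID 20265) but had no kainic acid region. It had 0, 6 and 0 peaks in kainic acid replicates 1, 2 and 3 and 0 in each saline library, so the groups overlapped. All 6 peaks belonged to kainic acid replicate 2. That list has a peak near 60.3% of all protein-coding genes. The folds ran from 3.24 to 6.08. The nearest peak to the Scn1a start lay 31786 bp away in replicate 2, and 41475 and 41343 bp away in replicates 1 and 3.

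Scn9a (chromosome 2, 66480080 to 66635114, gene ID 20274) had 3, 5 and 3 peaks with kainic acid and 0 in each saline library. All kainic acid libraries were above all saline libraries. Its 3 regions made 1.71 per 100 kb. The best ranked, at 66633039 to 66633642, lay 1320 bp inside the gene from its start. It had folds of 5.04 and 5.10 in replicates 1 and 3 and no peak in replicate 2, the longest list, which was missing from 1 region of the 28. The region in all 3 lists, at 66482170 to 66482698, lay at the far end of the gene, with folds of 3.84, 4.32 and 4.57. It and the remaining Scn9a region also overlap the noncoding gene Gm13629, so their assignment to Scn9a is by position only.

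Scn3a, the alpha subunit gene of the developing brain, had the fewest peaks of the 4 alpha subunit genes with a region (chromosome 2, 65457118 to 65567591, gene ID 20269). It had 1, 3 and 2 peaks with kainic acid and 0 in each saline library. Of its 2 regions, neither was in all 3 lists. The better ranked, at 65483246 to 65484026, had folds of 7.56 and 5.56 in replicates 2 and 3, and the summits of the 2 lists lay 1 bp apart. Its mean rank of 15.6 ± 3.92 (SD, n = 2) was better than the 25.8 of the best Scn2a region, and it was missing from replicate 1. That order rested on replicates 2 and 3. Without replicate 3 the best ranks were 62.3 for Scn3a and 21.2 for Scn2a, and without replicate 2 Scn3a had 0 regions. The other, at 65540647 to 65541035, had a fold of 5.04 in replicate 1 and 3.01 in replicate 2, at ranks of 30.8 and 93.9.

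Across the 5 alpha subunit genes the order of mean density in the kainic acid libraries was Scn8a, Scn2a, Scn9a, Scn3a and Scn1a. The means were 7.99 ± 4.63, 5.00 ± 2.498, 2.09 ± 0.660, 1.53 ± 0.766 and 1.05 ± 1.82 peaks per 100 kb (SD, n = 3). Scn8a was above each of the other 4 in 3 of 3 libraries. Its lead over Scn2a was small in replicate 1, where it was 0.0603 peaks per 100 kb, and averaged 2.99 ± 2.54 (SD, n = 3). Over Scn1a it averaged 6.94 ± 3.36. Compared within libraries, the two-sided exact sign-flip permutation test gave p = 0.25 for each of the 4 pairs (0.25 after Benjamini-Hochberg adjustment over the 4), the smallest value that 3 libraries allow. These pairs were chosen after the values were seen. Neighbours in the order differed by less than the larger of their SDs, except Scn2a and Scn9a. With regions required in all 3 lists, Scn8a and Scn2a had 4 each.

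**Figure D3:**
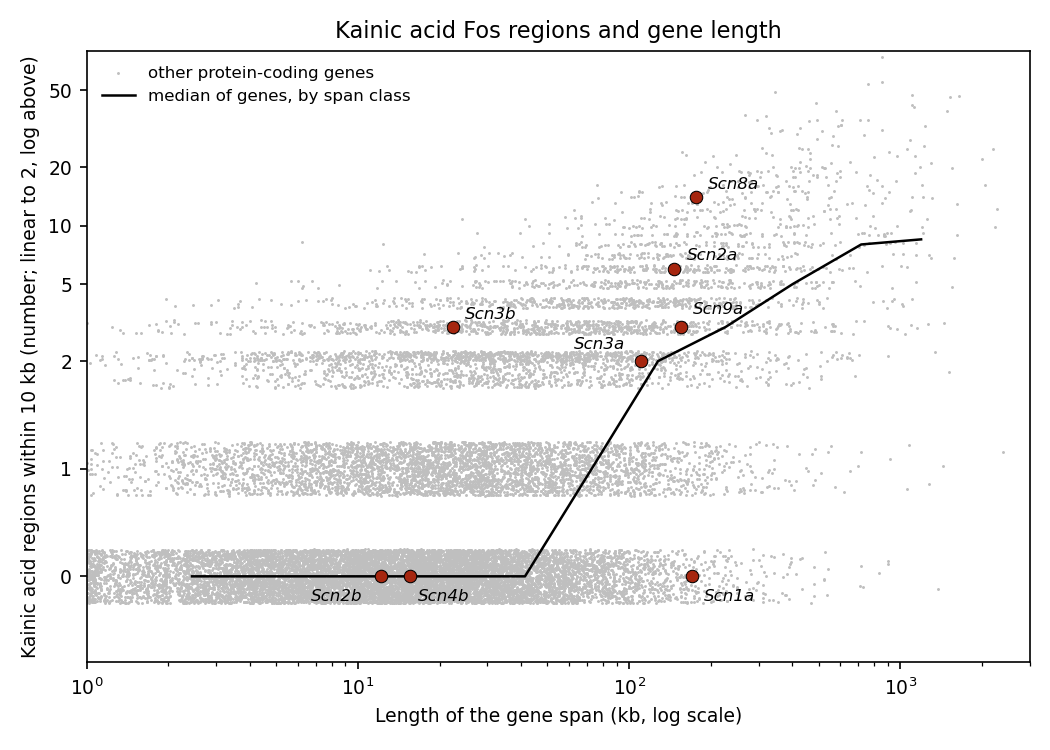
Number of kainic acid regions within 10 kb (y axis, linear to 2 and logarithmic above) against the length of the gene span in kb (x axis, logarithmic), for all protein-coding genes (grey, spread slightly in height so that they can be seen) and the 8 sodium channel genes (red). The black line joins medians of genes grouped by length. Scn8a, with 14 regions, lies above the median of genes of its length, and Scn1a, with 0, lies below it.

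Among the beta subunit genes, Scn3b stood apart by density. Its product associates with alpha subunits without a disulfide bond. The gene (chromosome 9, 40269216 to 40291618, gene ID 235281) had 2, 6 and 1 peaks in kainic acid replicates 1, 2 and 3 and 0, 1 and 0 in the saline replicates, so the groups overlapped. Its 3 regions made 7.07 per 100 kb, close to the 7.14 of Scn8a, but from a window of 42.4 kb, and none was in all 3 lists. Without kainic acid replicate 2 it had 0 regions. The best ranked, at 40275949 to 40276636 inside the gene, had folds of 7.02 and 4.46 in replicates 2 and 3 and 41 and 32 reads. The region at 40298566 to 40299158 lies inside the neighbouring gene Gramd1b and reached Scn3b only through the 10 kb reach. Its fold was 10.4 in replicate 2, at a rank of 4.85, and 3.54 in replicate 1, at a rank of 82.0. The third region, at 40267481 to 40268113, lay outside the gene, with folds of 4.11 and 5.63 in replicates 1 and 2.

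The Scn3b window also held the only place near the 8 genes where a saline peak met a kainic acid peak. Saline replicate 2 had a peak at 40269053 to 40269455 (fold 5.39, 19 reads), over the lower-coordinate end of the gene. Kainic acid replicate 2 had a peak at 40269418 to 40270300 (fold 3.85, 22 reads) that overlapped its edge. Kainic acid replicates 1 and 3 had none there, so it is not among the 28 regions.

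Scn2b and Scn4b encode the beta subunits that bind alpha subunits through a disulfide bond, and they are neighbours on chromosome 9 (45117876 to 45130070, gene ID 72821, and 45138624 to 45154155, gene ID 399548). Their windows overlap. Scn2b had 0, 1 and 0 peaks with kainic acid, the peak lying at 45120501 to 45120780 in replicate 2 with a fold of 3.602, where Scn2b overlaps the gene Gm10684. Scn4b had 0 peaks in each of the 6 libraries. Neither had a region, against 35.4% of genes of 10 to 25 kb that had one.

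The 28 regions, 10 without kainic acid replicate 2 and 14 without replicate 3, were then set beside all kainic acid regions. None of the 28 had a saline peak, 100% (95% Clopper-Pearson interval 87.7 to 100, counting error only), against 98.0% of all 26862 regions, which the short saline lists keep high in any case. Of the 28, 9 (32.1%) were in all 3 kainic acid lists, against 44.4% of all regions. By gene this was 4 of 6 for Scn2a, 4 of 14 for Scn8a, 1 of 3 for Scn9a and 0 for Scn3a and Scn3b. The median of the mean rank was 36.0 for the 28, against 42.2 for all regions, and for the 9 in all 3 lists it was 25.8, against 30.3. Median width was 620 bp, against 686 bp, and the median distance between the outermost kainic acid summits was 118 bp, against 106 bp. These are descriptions, with no test. Of the 28, 25 overlapped the span of their gene.

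**Figure D4:**
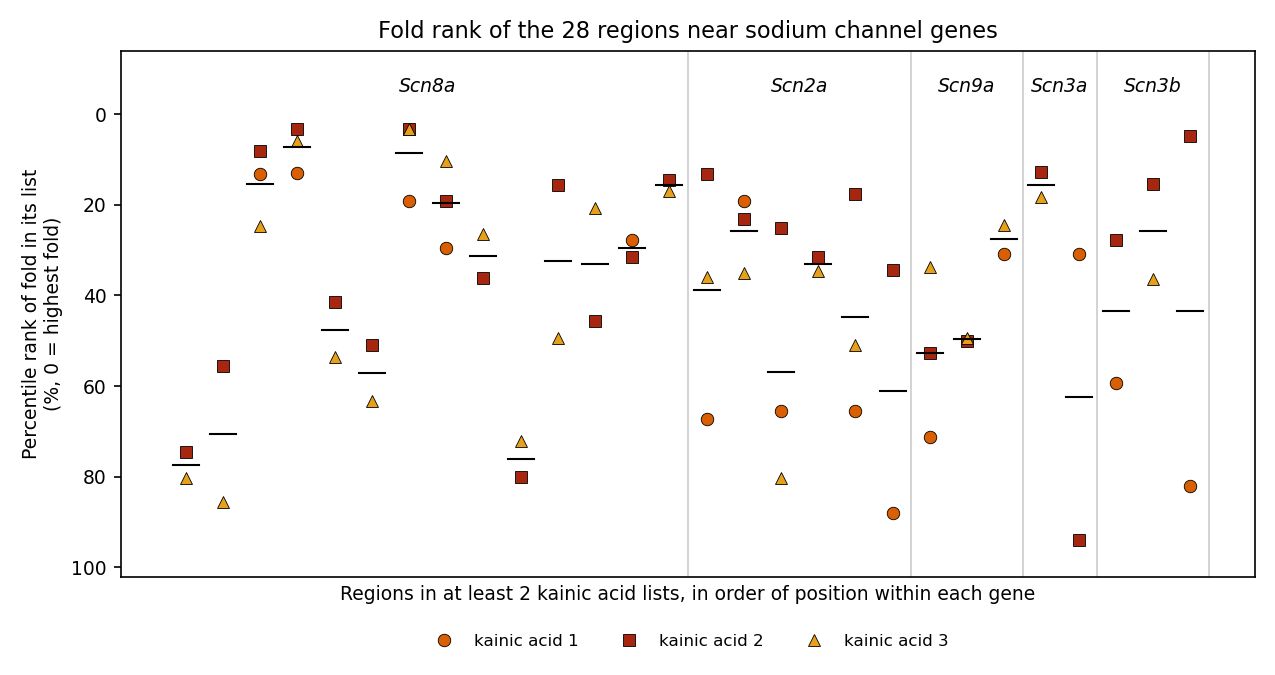
Percentile rank of the fold of each of the 28 regions within each kainic acid list (y axis, in percent, 0 is the highest fold of the list, plotted at the top), in order of position within each gene. Points are lists and black lines the mean over the lists that have the region. The best ranked regions are those of Scn8a, at mean ranks of 7.30 and 8.57.

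Density near the 8 genes was compared with that near all protein-coding genes within each list. The windows of the 8 genes, 957 kb in all, held 1.78, 6.06 and 3.13 peaks per 100 kb in kainic acid replicates 1, 2 and 3. The windows of all protein-coding genes held 0.846, 3.73 and 1.72. The ratio was 2.10, 1.62 and 1.82, a mean of 1.85 ± 0.240 (SD, n = 3), and above 1 in 3 of 3 libraries. It was lower the longer the list, and with −log10 q of at least 10 the mean was 1.37. In saline replicate 2 it was 0.870, from 2 peaks. Scn8a held 35.3%, 41.4% and 56.7% of the kainic acid peaks of the family. Without its window the ratio was 1.71, 1.20 and 0.993, a mean of 1.30 ± 0.369 (SD, n = 3), so that in replicate 3 the other 7 genes were at the level of genes in general.

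Genes of proteins that act with the channels were counted from a fixed list. Of 11 genes of proteins that bind or place the channels, 9 had regions, against 40.0% of all genes, and most of these are long. Ank2 had 39 regions (6.51 per 100 kb), Ank3, which encodes the ankyrin that anchors channels at the axon initial segment, had 35 (6.81 per 100 kb), and Nedd4l, which encodes a ubiquitin ligase acting on sodium channels, had 30 (8.49 per 100 kb). Fgf11 and Fgf13, which encode fibroblast growth factor homologous factors that bind the channel tail, had none. Scn8a, at 7.14 per 100 kb, lay between Ank3 and Nedd4l in density.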

How the data were processed

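The data were 6 peak lists, 1 per library, with no pooling. Per the submitters' processing notes, Trim Galore 0.6.4, Bowtie2 2.3.4.3, MACS2 (version not given in the sources used here) and deepTools 3.5.0 were used with build mm10. Per the peak names, alignments were filtered at a mapping quality of 30. The calling cutoff and control are not given in the sources used here. The fold deposited by the authors is a linear ratio, that of a peak to local background, the deposited −log10 p and −log10 q belong to the same library, and the deposited score is 10 times −log10 q, rounded down. None is scaled between libraries, so folds were ranked within lists only.

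Peaks overlapping by at least 1 bp were merged into regions with Python 3.11.15, numpy 2.4.6, scipy 1.17.1 and pandas 2.3.3. A region's rank in a list is that of its best peak. Gene spans came from the RefSeq table of GRCm38.p6, the assembly that mm10 names, which has no exons, so exonic and intronic positions are not told apart. Reads k and expected reads λ at a summit were solved together from the deposited fold, (k + 1)/(λ + 1), and the deposited p, the Poisson chance of over k reads, for 107 of 107 peaks near the genes within 0.001 in −log10 p. Merging, counting and solving were tested on simulated data. Read totals are not given in the lists.

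Members and gene lists were chosen with earlier results of these data known. Named were the 8 genes, the best ranked region of each, regions with a saline peak, regions within 2.5 kb of a start site, and, of listed partner genes, the 3 with most regions and those with none. Other regions were named after their values were seen. Further listed genes are not reported here. Alternatives covered −log10 q, reach, overlap, list length and each library left out. The input library was not used.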

Additional observations from a re-analysis of the deposited data

How the results depend on the processing

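Over 280 alternative values, 235 stayed within the limits set (direction for the tested difference, 1.5-fold for counts, 1 SD or the counting interval for other values), 45 moved and 0 reversed. Only the tested difference could be scored as reversed. Leaving out a saline library left the region counts, the ranks and the density ratio as they were, and those values are part of the 235. Scn1a, Scn2b and Scn4b had 0 regions to begin with, so their counts could not fall, and these too are mostly part of the 235. The number that stayed is therefore no measure of stability by itself. Kainic acid stayed above saline on the log10(number + 1) scale in each alternative, by 1.21 to 1.51 with a library left out, but 3 against 3 libraries cannot give p under 0.1. With the replicate block, pairing libraries of the same number, it was 1.35 by construction and was counted as unmoved. An exact permutation of signs within pairs gave p = 0.25, the smallest that 3 pairs allow. Deviations of same-numbered libraries correlated at 0.281, 0.275 and 0.0414 across 21887 genes. Those of differently numbered libraries ran from −0.281 (kainic acid 1 with saline 2) to 0.281 (kainic acid 1 with saline 3), so the same-numbered values do not stand out. Saline replicate 2 holds nearly all saline peaks and so sets these values, and the labels do not say what a number marks, so the numbers were not treated as pairs.

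The number of regions near the 8 genes was 6 with −log10 q of at least 10, 13 with the kainic acid lists trimmed to equal length and 9 when all 3 lists were required, and 10 to 28 with a library left out. Leaving out kainic acid replicate 2 gave 10, and leaving out replicate 3 gave 14, where fewer lists allow fewer pairs. Genes with a region numbered 2 with −log10 q of at least 10 (19.6% of all genes), 3 for all 3 lists (23.9%) and 3 to 5 with a library left out (23.9% without kainic acid replicate 2). Genes without overlap of the groups, an alternative added after seeing the data, numbered 1 with −log10 q of at least 10 (9.12% of all genes) and 4 to 5 with a library left out (20.7% to 34.8%). The density ratio was 1.37 with −log10 q of at least 10. The cause was not tested. Of 120 counts for single genes, 26 moved, 23 to fewer and 3 to more. Leaving out a kainic acid library gave 4 to 13 regions for Scn8a and 4 to 5 for Scn2a. It gave 0 to 1 for Scn3a, 0 to 2 for Scn3b and 1 to 2 for Scn9a. Of 73 best ranks, 9 moved, and leaving out a library gave 15.6 to 62.3 for Scn3a and 27.6 to 62.0 for Scn9a. With −log10 q of at least 10, 5 of the 6 regions were those of Scn8a. Pileups of 11 to 69 reads limit all ranks.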

Other observations

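Scn3a, Scn2a, Scn1a, Scn9a and Scn7a share a stretch of chromosome 2 (65457118 to 66784910, 1328 kb), which also holds the genes Csrnp3, Galnt3 and Ttc21b. The stretch had 25 kainic acid regions, 11 of them in all 3 lists, and 0 peaks in each saline library. They were spread unevenly along it. Scn2a had 6 regions (4.09 per 100 kb of span) and Csrnp3, which encodes a nuclear protein of the cysteine-serine-rich family, had 8 (4.18 per 100 kb, 3 of them in all 3 lists). Scn1a had 0 in 170 kb and Scn7a had 0 in 111 kb. Between genes, 2 regions lay in the 77.8 kb from Scn2a to Csrnp3 and 2 in the 58.7 kb from Galnt3 to Ttc21b. The other 5 gaps between genes, of 14.1 to 53.2 kb, had 0. Galnt3 and Ttc21b had 1 region each, both in all 3 lists. This stretch was chosen after the positions of the member genes were seen, and the differences along it were not tested.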
